A study of Felis catus with 36 samples.

Results

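The 8 Ensembl identifiers described here, ENSFCAG00000032048, ENSFCAG00000032052, ENSFCAG00000032058, ENSFCAG00000032061, ENSFCAG00000032064, ENSFCAG00000032065, ENSFCAG00000032070 and ENSFCAG00000032077, are 8 of the 26681 gene identifiers counted in cat left ventricle (LV) and skeletal muscle (SKM). They were chosen from the counts themselves, because in each of them some libraries lay far above the others. The presence of 2 levels is therefore how they were picked and is given here as a description, with no test. Together they held 0.168% to 8.49% of the gene counts of an LV library and 0.0546% to 2.32% of those of an SKM library, with nothing in between 0.257% and 5.00% in LV or between 0.0832% and 0.915% in SKM. The same libraries, by group and number, were at the upper level in both tissues.

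None of the 8 can be given a gene name or a role here. The files list identifiers without symbols, and the cat gene table at hand, RefSeq for assembly F.catus_Fca126_mat1.0, holds 39307 genes and 0 Ensembl identifiers, so that 0 of the 26681 could be joined to it. The markers of heart and skeletal muscle could not be checked for the same reason. No sequence of the 8 was at hand either, and none is printed.

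Some background helps to read the counts. HTSeq, the counter named in the submitters' processing notes, credits an aligned read to a gene when the read lies in that gene alone. It keeps separate summary lines for reads that aligned nowhere, that lay in no annotated gene (no feature), that lay in several overlapping genes (ambiguous), and that aligned equally well to several places (not unique). Reads of duplicated genes and of repeated sequence fall on the not-unique line. So can reads of the mitochondrial genome where the nuclear genome carries copies of it, and the name Numt for such copies was coined in work on the domestic cat. Mitochondrial DNA encodes proteins of the respiratory chain together with the ribosomal and transfer RNAs that translate them, and its transcripts are abundant in heart muscle. Whether the 8 belong to that genome was the question put to the counts, and it is taken up below with the neighbouring identifiers.

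The study followed the progression of heart failure with a preserved ejection fraction (HFpEF), modelled in cats by aortic banding, a constriction around the aorta that loads the left ventricle. Its controls were SHAM-operated cats, and both were sampled at 1 month or 4 months. Of the 18 libraries per tissue, 8 are sham (3 taken at 1 month, 5 at 4 months) and 10 are banded (5 taken at either time). The labels give no strain, sex, age or batch and do not say whether the libraries of a group came from separate animals, so p-values measure only the spread between these libraries, which may be technical. The RNA was total RNA made into libraries with a stranded mRNA kit. The LV libraries hold 14.6 M to 22.3 M counts in genes, and the SKM libraries 21.5 M to 34.9 M.

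In LV, the summed share of the 8 identifiers was 0.203%, 0.191% and 5.00% of gene counts in sham libraries 1 to 3 at 1 month. In sham at 4 months, libraries 1 to 5 held 0.172%, 0.193%, 0.168%, 5.43% and 7.65%. Sham libraries thus stood at both levels at both times, with 1 of 3 libraries at the upper level at 1 month and 2 of 5 at 4 months. In banded LV at 1 month the values were 0.257%, 5.50%, 7.02%, 0.210% and 6.97%. In banded LV at 4 months they were 0.201%, 5.55%, 6.50%, 8.49% and 6.54%. The banded groups also held both levels, with 3 of 5 libraries at the upper level at 1 month and 4 of 5 at 4 months. In bulk RNA such as this, fewer cells of a type and less RNA per cell cannot be told apart.

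In SKM the summed share was 0.0832%, 0.0608% and 1.56% in sham at 1 month, and 0.0716%, 0.0744%, 0.0715%, 1.72% and 2.02% in sham at 4 months. In banded SKM it was 0.0791%, 2.28%, 2.32%, 0.0546% and 0.915% at 1 month, and 0.0806%, 2.19%, 1.91%, 1.45% and 1.35% at 4 months. The SKM libraries at the upper level carried the same group and number as those of LV in 18 of 18 cases. Each tissue therefore had 10 libraries at the upper level and 8 at the lower, the latter being sham libraries 1 and 2 at 1 month, sham libraries 1, 2 and 3 at 4 months, banded libraries 1 and 4 at 1 month and banded library 1 at 4 months. The labels do not say that equal numbers mark the same animal in LV and SKM.

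The smallest sum rested on 15008 counts, in SKM banded library 4 at 1 month, where the share of 0.0546% had an exact 95% binomial interval of 0.0537% to 0.0554%. Such an interval covers counting error only, since reads without molecular identifiers are not independent molecules. Counts were divided by the library's total of gene counts and given as CPM, and the widest step between neighbouring libraries, after sorting on log2(CPM + 0.5), was taken as the gap between the levels. Across that gap the summed CPM rose 19.5-fold in LV, from 2570 to 50031 CPM, and 11.0-fold in SKM, from 832 to 9149 CPM. Within the upper level the highest library was 1.70 times the lowest in LV and 2.53 times in SKM. Within the lower level it was 1.53 times in LV and 1.52 times in SKM.

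**Figure D1:**
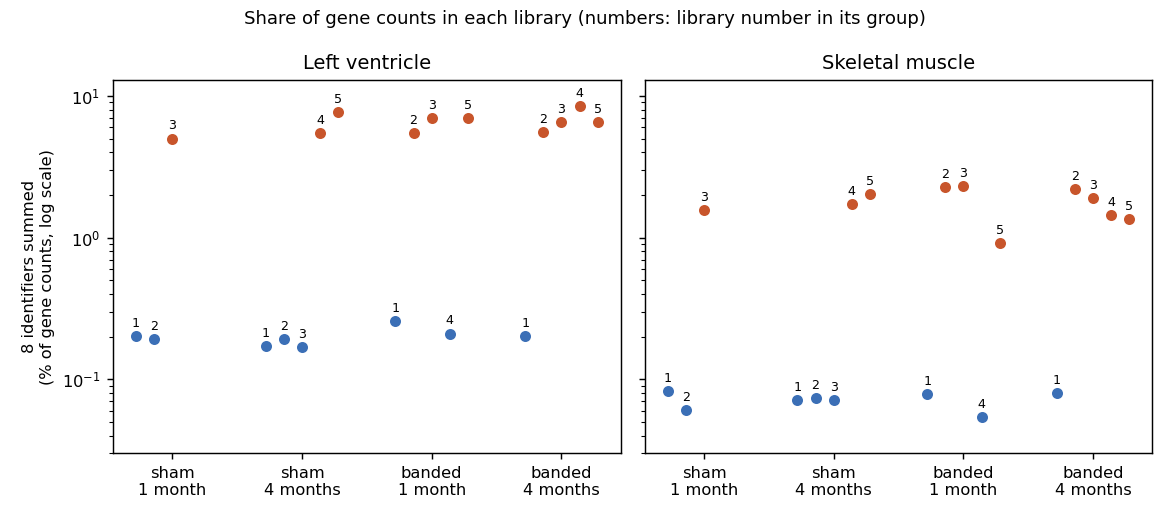
Summed share of the 8 identifiers in percent of gene counts (log axis) for each of the 18 libraries of left ventricle and skeletal muscle, by group, with the library number beside each point and colour for the level. Each of the 4 groups of each tissue has libraries at both levels, and the numbers at the upper level are the same in both panels.

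Each identifier on its own showed the same 10 libraries above its own widest gap, in LV and in SKM. None was silent at the lower level, where the smallest count in any library was 94 in LV and 28 in SKM, both for ENSFCAG00000032070. The gap ratio, the lowest upper library over the highest lower one, ran from 10.1 to 97.6 in LV and from 5.24 to 112 in SKM. CPM is not corrected for transcript length and the files give no lengths, so the levels of different identifiers are not compared with each other.

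Of the 8, ENSFCAG00000032058 took the largest share of the reads and had the narrowest gap in LV and in SKM. In LV sham it stood at 1749.8, 1739 and 24522.5 CPM at 1 month and at 1563, 1773, 1453, 23104 and 31870.5 CPM at 4 months. In banded LV it stood at 2288, 26850.2, 34359.6, 1915 and 33811 CPM at 1 month and at 1868, 25224, 26686, 38296.5 and 27505 CPM at 4 months. The lowest upper library thus held 10.1 times the CPM of the highest lower one, and both levels were present in each of the 4 groups. In SKM it lay between 494 and 781 CPM in the 8 lower libraries and between 4093 and 10241 CPM in the 10 upper ones, a gap ratio of 5.24. The lower level of this identifier was far from 0, with at least 13587 reads in every library.

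ENSFCAG00000032077 had the widest gap of the 8 in SKM, though not in LV, and the most variable lower level in both tissues. In LV sham it stood at 48.0, 17.0 and 6127 CPM at 1 month and at 17.3, 14.3, 37.6, 9011 and 10943 CPM at 4 months. In banded LV it stood at 106, 7886, 8606, 24.8 and 8742 CPM at 1 month and at 13.4, 8168, 8988, 10916 and 10464 CPM at 4 months. The lower libraries differed among themselves by up to 7.87 times, the upper ones by up to 1.79 times, and the gap ratio was 58.1. In SKM the lower libraries lay between 2.35 and 11.9 CPM and the upper ones between 1334 and 3268 CPM, with a gap ratio of 112.

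ENSFCAG00000032048 ran from 25.6 to 48.2 CPM in the lower LV libraries and from 2919 to 5658 CPM in the upper ones, and from 6.53 to 14.3 and 529 to 1383 CPM in SKM. For ENSFCAG00000032052 the LV ranges were 42.6 to 69.3 and 4761 to 8866 CPM, and those of SKM 9.16 to 21.9 and 864 to 2917 CPM. For both, the lower libraries were within 2.39 times of each other in either tissue.

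ENSFCAG00000032061 had lower and upper LV ranges of 13.2 to 35.3 and 1089 to 2192 CPM, and SKM ranges of 4.97 to 10.6 and 204 to 595 CPM. ENSFCAG00000032064 had LV ranges of 7.32 to 36.7 and 1919 to 4137 CPM, and SKM ranges of 2.49 to 7.02 and 380 to 1148 CPM. After ENSFCAG00000032058, ENSFCAG00000032061 had the next narrowest gaps in LV and SKM, 30.9 and 19.3, while ENSFCAG00000032064 had gaps of 52.3 and 54.2.

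ENSFCAG00000032065 had LV ranges of 23.7 to 61.9 and 6042 to 11922 CPM and SKM ranges of 7.25 to 22.1 and 1456 to 3728 CPM. ENSFCAG00000032070 had LV ranges of 6.43 to 17.0 and 1395 to 3275 CPM and SKM ranges of 1.05 to 3.73 and 289 to 779 CPM. Their gap ratios were 97.6 and 82.1 in LV and 65.8 and 77.5 in SKM, so that 7 of the 8 identifiers were separated by at least 19.3 times in each tissue and ENSFCAG00000032058 was not.

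**Figure D2:**
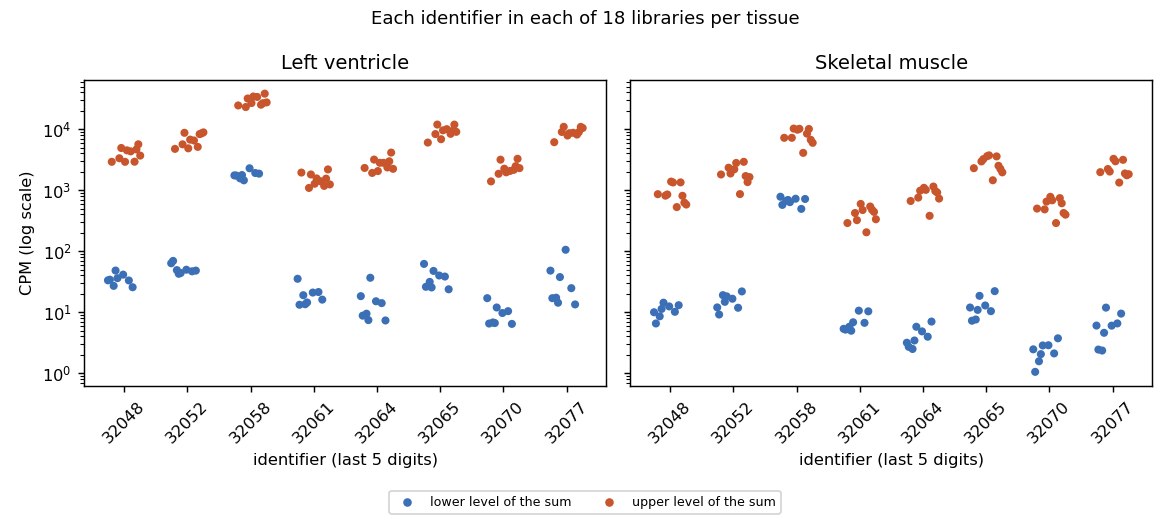
CPM (log axis) of each of the 8 identifiers in each of the 18 libraries of left ventricle and of skeletal muscle, coloured by the level of the summed CPM. Each identifier has the same 10 libraries in its upper cloud, and ENSFCAG00000032058 has the smallest distance between its clouds.

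Because the identifiers moved by different amounts, the makeup of their sum differed between the levels. These are shares of counts, not of molecules. ENSFCAG00000032058 made up 86.3% to 93.0% of the summed counts in the lower LV libraries and 41.0% to 49.0% in the upper ones. In SKM its share was 89.0% to 94.4% in the lower libraries and 38.6% to 52.9% in the upper ones, so in neither tissue did the ranges overlap.

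The remaining 7 took up the difference. ENSFCAG00000032065 went from 1.18% to 3.05% of the summed counts in lower LV libraries to 12.1% to 15.6% in upper ones. ENSFCAG00000032077 went from 0.667% to 4.11% to 12.2% to 16.6%, and ENSFCAG00000032052 from 1.93% to 3.62% to 8.84% to 13.6%. In SKM the corresponding upper ranges were 13.2% to 17.2%, 9.87% to 14.6% and 8.95% to 13.6%. For each of these 3 the upper ranges of LV and SKM overlapped, and the upper range lay wholly above the lower one in LV and in SKM.

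**Figure D3:**
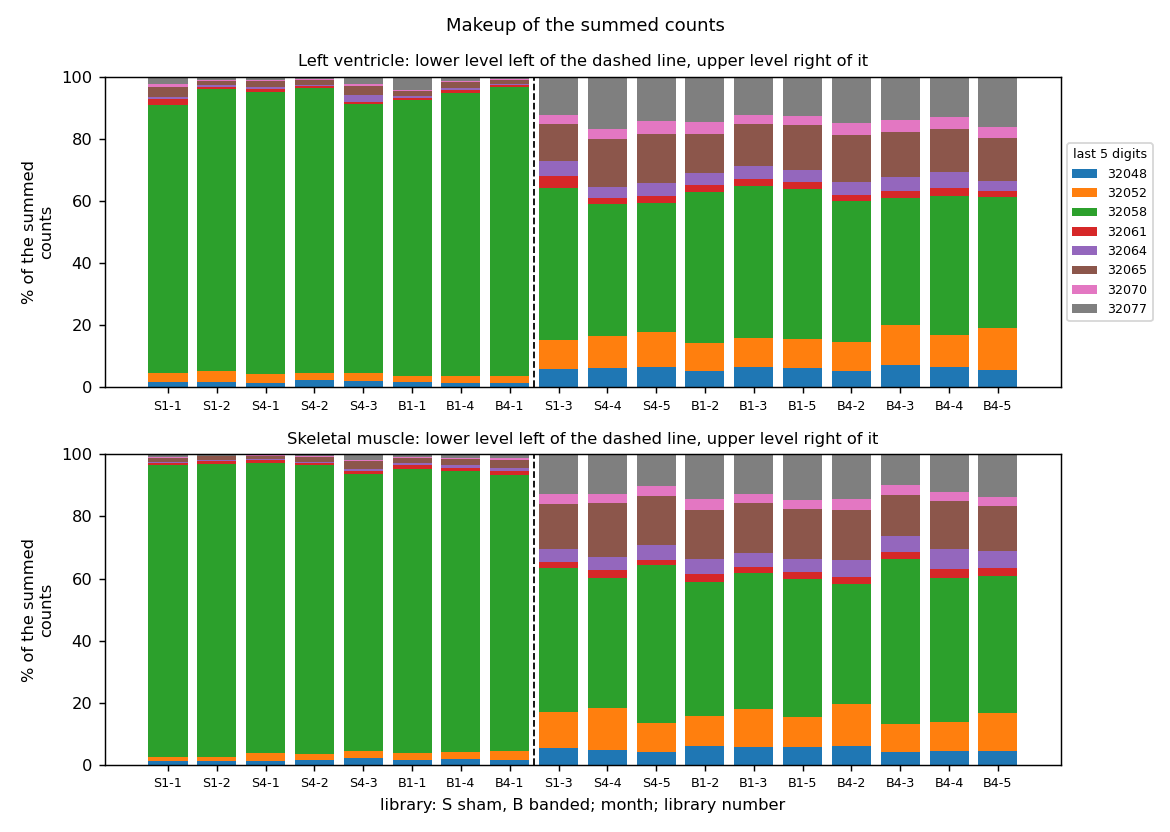
Share of the summed counts of the 8 identifiers that each one held, in percent, with one bar per library of left ventricle and of skeletal muscle, the 8 lower libraries left of the dashed line and the 10 upper ones right of it. ENSFCAG00000032058 (green) fills 86.3% to 94.4% of the bars on the left and 38.6% to 52.9% of those on the right.

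The levels were higher in LV than in SKM within each pair of libraries of equal group and number. The summed CPM of the LV library over that of the SKM library had a median ratio of 3.15 and a range of 2.35 to 7.62, above 1 in 18 of 18 pairs. With TMM scaling, which brought the median gene near level between the tissues, the median ratio was 1.95 (1.35 to 4.21), again above 1 in 18 of 18. The choice of scaling matters here because the median gene of the 11097 with at least 1 CPM in each tissue moved by 0.67 on the log2 scale between library totals and TMM. On those scales the median difference of the 8 was 1.75 and 1.03, beside 0.67 and 0.00093 for all genes. Each of the 8 was higher in LV in 18 of 18 pairs on the scale of library totals, by a median of 2.94 times for ENSFCAG00000032052 to 4.41 times for ENSFCAG00000032077.

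In the edgeR quasi-likelihood fit to all 36 libraries, LV minus SKM gave a median log2 fold change of 1.20 over the 8 (0.99 to 1.40), beside 0.12 over all genes tested. None of the 8 passed an adjusted p of 0.05 after Benjamini-Hochberg correction, beside 78.5% of the 14579 genes tested, and 0 of the 8 had an unadjusted p under 0.05. ENSFCAG00000032058 came closest, with a fold change of 1.13 on the log2 scale (SE 0.60) and an adjusted p of 0.082. DESeq2 called 1 of the 8, with an adjusted p of 0.026, beside 79.0% of the 14579 genes. Neither fit paired libraries by number, so the spread between the levels, which both tissues share, counted as error. The lack of calls by edgeR is thus no sign that the 8 were alike in LV and SKM. The outcome of the edgeR fit also moved with single libraries. Leaving out an upper library of a single tissue leaves the levels unbalanced between the tissues. Without SKM sham library 3 at 1 month, the single library of its group at the upper level, the median became 2.61 and 8 of 8 were called, with 0.018 as the lowest adjusted p. Without LV sham library 3 at 1 month the median was -0.16 and 0 of 8 were called.

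The comparisons the study was built for were fitted per tissue. The 8 were picked for their 2 levels, and each group held both, so a wide spread within groups was built in. Counts of calls on the 8 and their adjusted p are therefore given as a description only. In LV, banded minus sham gave a median log2 fold change over the 8 of 0.93 at 1 month (0.080 to 1.12) and 0.97 at 4 months (0.87 to 1.14), beside -0.010 and -0.017 over the 13976 genes tested. By edgeR 0 of 8 were called at either time, beside 0.0% of all genes at both, with 0.906 and 0.832 as the lowest adjusted p among the 8. In SKM the corresponding medians were 0.93 (0.62 to 1.13) and 0.98 (0.75 to 1.25), beside 0.021 and 0.021 over 13480 genes. Again 0 of 8 were called, beside 0.0% of all genes, and the lowest adjusted p by edgeR were 0.790 and 0.881. In both tissues the upper libraries numbered 1 of 3 and 2 of 5 in sham, and 3 of 5 and 4 of 5 in banded, at 1 and 4 months.

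Between 1 and 4 months, the LV medians over the 8 were 0.79 in sham (-0.17 to 1.09) and 0.81 in banded (0.50 to 1.00), beside -0.036 and 0.0095 over all genes. By edgeR 0 of 8 were called in either, beside 18.3% and 25.4% of all genes, with lowest adjusted p of 0.765 and 0.700. In SKM the medians were 0.42 in sham (0.16 to 0.64) and 0.52 in banded (0.23 to 0.80), beside -0.050 and -0.018 over all genes. There too 0 of 8 were called, beside 25.3% and 42.6% of all genes, with lowest adjusted p of 0.821 and 0.692 by edgeR. In sham the direction rested on single libraries. The LV median in sham became 6.25 without sham library 3 at 1 month, with 5 of 8 at an unadjusted p under 0.05, and -0.13 without sham library 5 at 4 months. It was 0.22 without sham library 1 or 2 at 1 month, and -0.50 in the fit with library number as a replicate block. The SKM median in sham became 6.74 without sham library 3 at 1 month, with 7 of 8 at an unadjusted p under 0.05, and was below 0 in 4 of 18 leave-outs, the lowest being -0.28 without sham library 4 at 4 months. With the replicate block it was 0.079. In banded the medians over the leave-outs ran from 0.48 to 1.18 in LV and from 0.19 to 0.91 in SKM. None of these settings called any of the 8. Comparisons that involve the same group share its libraries and are not separate evidence. Nor are the 8 separate from each other, since they have the same upper libraries.

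In all 8 of these comparisons 0 of the 8 identifiers had an unadjusted p under 0.05 by edgeR, and DESeq2 called 0. For banded minus sham, DESeq2 called 0.716% and 0.966% of all genes in LV and 0.178% and 0.415% in SKM, at 1 and 4 months. Between the times it called 22.5% in sham and 29.0% in banded LV, and 29.6% and 45.3% in SKM. The spread within groups was wide enough that for ENSFCAG00000032077 in LV at 1 month a log2 fold change of 1.00 had an SE of 2.16. For ENSFCAG00000032058 the same comparison gave 0.83 (SE 1.28). A difference of this size between banded and sham was therefore not detectable in these libraries. For banded minus sham at 1 month, the values depended on library 3 of sham at 1 month, the single upper library of its group. Without it, the median was 6.44 in LV and 7.04 in SKM, with 6 and 7 of the 8 at an unadjusted p under 0.05 and 0 of 8 called in each tissue. Without sham library 1 or 2 it was 0.36 in LV and 0.35 in SKM. Because the 8 share their upper libraries, a count of them under a given p is not separate evidence from each. At 4 months the median ran from 0.66 to 1.97 over the leave-outs in LV, highest without sham library 5 at 4 months, and from 0.66 to 1.71 in SKM, highest without sham library 4 at 4 months. The authors' deposited table of each of these 8 comparisons lists all 8 identifiers and calls 0 of them, with 0.672 as the lowest adjusted p in any deposited table. Over all genes listed, the authors' deposited table for banded minus sham calls 0.558% and 0.928% in LV and 0.0598% and 0.651% in SKM, at 1 and 4 months. The authors' deposited table for 4 months minus 1 month calls 7.04% in sham and 26.6% in banded LV, and 7.82% and 44.1% in SKM.

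The numbers of the 8 fall within a dense stretch. Of the identifiers numbered ENSFCAG00000032040 to ENSFCAG00000032080, the files hold 40, which are the 8 and 32 others. From ENSFCAG00000032042 to ENSFCAG00000032081 the numbers follow each other without a break, a run of 40 that is second in length among 8713 unbroken runs, of which the longest has 6645 identifiers and the median 2. The RefSeq table lists 37 mitochondrial genes of the cat, 13 coding for proteins, 2 for ribosomal RNAs and 22 for transfer RNAs. The count of 40 is near 37 but not equal to it, and this comparison of lengths does not settle whether the stretch, or any of the 8, is mitochondrial. No identifier was joined to a gene, position or sequence. The order of filled and empty numbers along the stretch was not set against the order of mitochondrial genes.

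The other 32 were mostly empty. A count of 0 in every one of the 36 libraries was found for 16 of the 32, beside 22.5% of all identifiers, and 5 more never exceeded 5 reads in a library. The 8 were therefore 8 of 24 identifiers of the stretch with any read. Among the 32, the highest mean levels over all libraries were those of ENSFCAG00000032046, with 725 CPM, and ENSFCAG00000032074, with 412 CPM. Both had ranges that overlapped between the libraries of the lower and upper levels. ENSFCAG00000032046 ran from 202 to 1058 CPM in the LV libraries of the lower level and from 638 to 5780 CPM in those of the upper, and ENSFCAG00000032074 from 157 to 615 and from 249 to 1052 CPM.

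Likeness to the 8 was measured by Spearman's rho with their summed CPM over the 18 libraries of each tissue, as a description. By the lower of the values in LV and SKM the most alike of the 32 were ENSFCAG00000032074, with a rho of 0.75 in LV and 0.89 in SKM, and ENSFCAG00000032069, with 0.71 and 0.87. ENSFCAG00000032069 was rare, with at most 65 reads, yet its LV libraries ran from 0.060 to 0.32 CPM at the lower level and from 0.33 to 3.01 CPM at the upper. ENSFCAG00000032044 followed with 0.69 and 0.90. It stood just outside the 8 and had no overlap between the levels in LV or SKM. In LV its lower libraries lay between 7.44 and 57.1 CPM and its upper ones between 70.9 and 877 CPM, so that the levels nearly touched. In SKM they lay between 2.33 and 8.63 CPM and between 28.1 and 112 CPM.

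**Figure D4:**
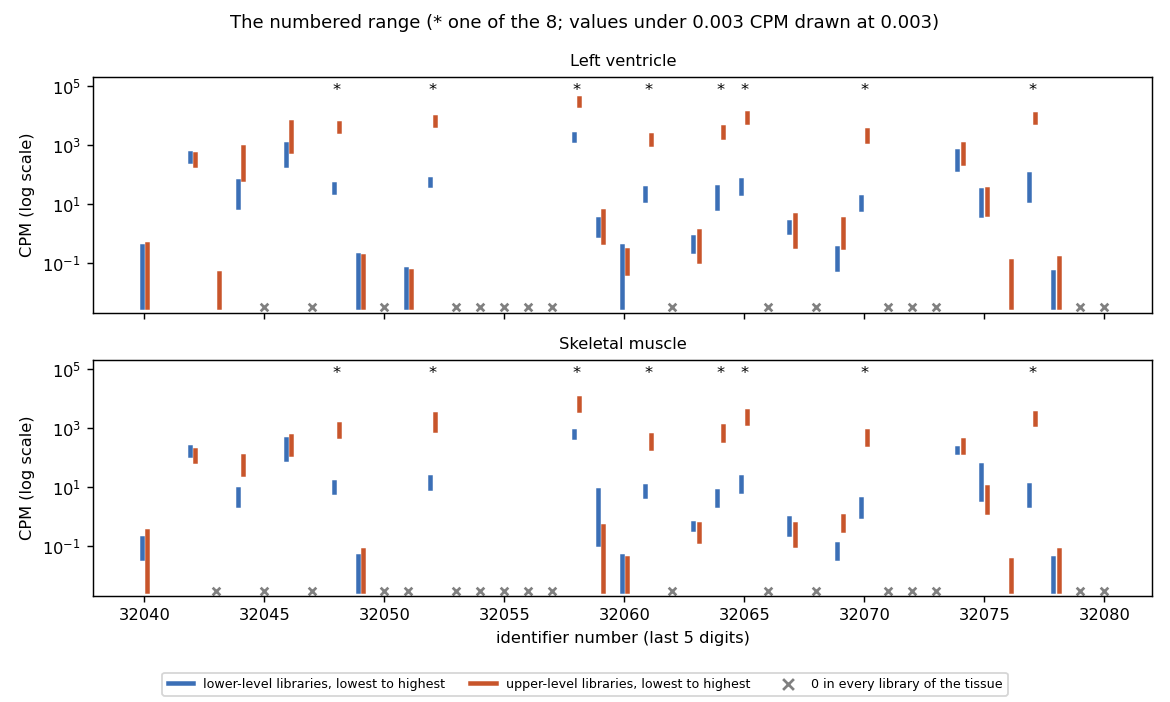
Lowest to highest CPM (log axis) of each identifier of the numbered stretch (named by its last digits) over the 8 lower and the 10 upper libraries of left ventricle and of skeletal muscle, with crosses for identifiers at 0 in every library of the tissue and stars for the 8. The bars of the 8 are far apart. Those of ENSFCAG00000032044 and ENSFCAG00000032069 are just separate in left ventricle and further apart in skeletal muscle. The bars of the other identifiers overlap or hold only single reads.

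Separation by level was rare among all genes. Among the 11097 genes with a mean of at least 1 CPM in each tissue, the 10 upper libraries were all above the 8 lower ones in both tissues for 9, or 0.0811%. In LV alone the share was 0.0803% and in SKM alone 0.0785%. Those 9 were the 8 identifiers, for which this is how they were picked, and ENSFCAG00000032044, and 0 lay outside the numbered stretch. Counting the 18505 genes with any read in each tissue, a choice made after seeing the data, the number was 10, or 0.054%, with ENSFCAG00000032069 as the addition. The opposite order held for 1 gene, 0.00901% of the 11097 and 0.0054% of the 18505, and that gene, ENSFCAG00000046508, is none of the 8. Of genes outside the stretch, the 3 most alike to the 8 were ENSFCAG00000024526 (rho 0.52 in LV and 0.53 in SKM), ENSFCAG00000035832 (0.66 and 0.50) and ENSFCAG00000027663 (0.43 and 0.48). None of the 3 was separated by level. ENSFCAG00000035832, for example, ran from 2.22 to 6.96 CPM in the lower LV libraries and from 3.96 to 16.7 CPM in the upper ones.

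The edgeR fits tested 9 of the 32 others. In the banded-minus-sham comparisons 0 of 9 were called in LV and SKM at 1 and 4 months, beside 0.0% of all genes. Those at an unadjusted p under 0.05 by edgeR numbered 3, 1, 0 and 0. DESeq2 called 1 in LV at 1 month, beside 0.716% of all genes. For LV at 1 month the authors' deposited table calls ENSFCAG00000032075 (log2 fold change -1.49, adjusted p 0.0465), beside 0.558% of all genes listed. From 1 to 4 months in banded LV, 4 of 9 rose, beside 25.4% of all genes called in either direction. They were ENSFCAG00000032046 (log2 fold change 2.21, SE 0.67, adjusted p 0.022), ENSFCAG00000032075 (1.56, SE 0.35, adjusted p 0.0036), ENSFCAG00000032067 (adjusted p 0.016) and ENSFCAG00000032063 (adjusted p 0.0493). The count was 3 by DESeq2 and 2 without banded library 4 at 1 month or banded library 3 at 4 months, and the authors' deposited table gives ENSFCAG00000032063 an adjusted p of 0.079. In sham LV over the same time ENSFCAG00000032059 fell by 1.46 on the log2 scale and ENSFCAG00000032063 rose by 1.49. Of all genes 18.3% were called there by edgeR. ENSFCAG00000032063 had only 2 to 6 reads a library at 1 month and 7 to 23 at 4 months. The authors' deposited table gives adjusted p of 0.119 and 0.143. Both edgeR calls were lost without sham library 1 or 3 at 1 month or sham library 2 or 5 at 4 months. They were also lost without banded library 3 at 1 month. In banded SKM ENSFCAG00000032059 fell by 3.27 (SE 1.06, adjusted p 0.019 by edgeR), beside 42.6% of all genes called in either direction. It had 175 reads in SKM banded library 1 at 1 month and 2 to 12 in the other libraries of that group. At 4 months it had 1 to 8. It was not called without SKM banded library 1 at 1 month, and the authors' deposited table gives it no adjusted p. Between the tissues 6 of 9 were called, 5 higher in LV and ENSFCAG00000032063 lower, beside 78.5% of all genes.

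Summed, the 32 others held 0.231% ± 0.161 of gene counts in LV and 0.0665% ± 0.0216 in SKM (SD, n = 18 each). The difference of 0.164 percentage points passed a two-sided permutation test with 100000 resamples (p 1e-05, the smallest they can give, adjusted p 0.00013 over 27 comparisons of library measures). It is on the scale of library totals, on which the median gene was also higher in LV, by 0.67 on the log2 scale. The largest parts of the sum were ENSFCAG00000032046 (mean 1217 CPM in LV and 234 in SKM) and ENSFCAG00000032074 (571 and 253). In LV, the summed share of the 32 others was lower in the lower libraries of the 8 than in the upper ones within each of the 4 groups. The ranges were 0.0861% to 0.181% and 0.181% to 0.773%. In SKM that held in 2 of 4 groups, with ranges of 0.0393% to 0.0810% and 0.0418% to 0.118%. No comparison between groups passed, with 0.161 as the lowest adjusted p by exact permutation. At 3 against 5 libraries the smallest two-sided p is 0.0357.

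The summary lines did not divide the libraries as the 8 did. Not-unique lines were 22.8% to 31.5% of all lines in the LV libraries of the lower level and 18.3% to 36.7% in those of the upper level. In SKM they were 12.2% to 27.2% and 7.73% to 14.5%. The ranges overlapped in LV and SKM. Within groups, the lower libraries had a higher not-unique share than every upper one in 1 of 4 LV groups and a lower share in 1 of 4, whereas in SKM they had the higher share in 3 of 4. No-feature lines were 11.6% to 15.0% and 12.2% to 15.1% in LV, and 10.6% to 19.6% and 9.70% to 13.1% in SKM, at the lower and upper level.

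Set against the not-unique lines of the same library, the summed counts of the 8 came to 0.311 to 0.492 per 100 not-unique lines at the lower level in LV and 8.17 to 20.7 at the upper. In SKM they came to 0.172 to 0.394 and 8.66 to 13.7. As a share of all lines, the 8 made up at most 0.135% in LV at the lower level and at least 2.64% at the upper, and at most 0.0573% and at least 0.669% in SKM. The lines that are not aligned, the ambiguous lines and the gene counts also overlapped between the levels in LV and SKM. With the counts of the 8 included, every lower library of a group had fewer gene counts than every upper one in 3 of 4 SKM and 2 of 4 LV groups. It had more in 0 and 1. The share of lines credited to genes was lower in 3 of 4 SKM and 1 of 4 LV groups, and higher in 0 and 1. This share and the gene counts include the 8 themselves, so neither is separate from the level. At the upper level the 8 made up 2.64% to 4.93% of all lines in LV and 0.669% to 1.65% in SKM. Neither measure was recounted without them. The not-aligned share was lower in 2 of 4 SKM groups and higher in 2 of 4 LV groups, with the reverse in 0 of each. Whether reads of the 8 were moved to or from the not-unique line was not tested, since the files hold only totals for it.

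**Figure D5:**
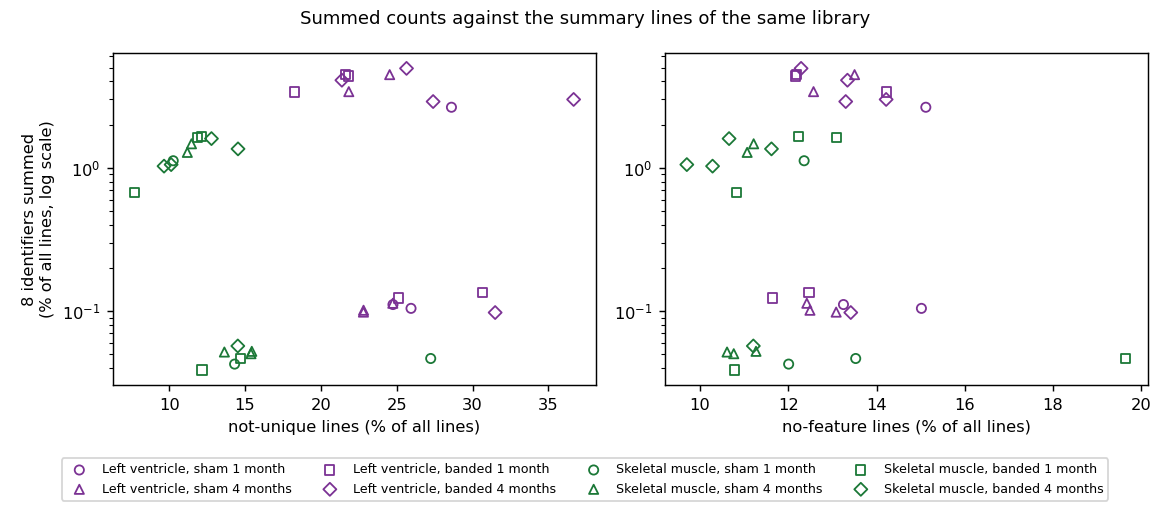
Summed counts of the 8 identifiers in percent of all lines (log axis) against not-unique lines (left) and no-feature lines (right) in percent of all lines, one point per library, with colour for tissue and shape for group. The upper and lower bands of each tissue span overlapping stretches of both horizontal axes.

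Between the tissues, not-unique lines were 25.3% ± 4.39 in LV and 13.3% ± 4.10 in SKM (SD, n = 18 each), a difference of 12.1 percentage points that passed the permutation test with 100000 resamples (p 1e-05, the smallest they can give, adjusted p 0.00013). The tissue with more not-unique lines was thus also the one with the higher share of the 8, and a part of one in the other was not tested. No-feature lines were 13.2% ± 0.987 and 11.8% ± 2.18, and that difference did not pass (permutation p 0.018, adjusted p 0.158). None of the 16 comparisons of these lines between groups passed by exact permutation, the lowest adjusted p being 0.161.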

How the data were processed

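The authors deposited 1 file of raw counts per library, with 26681 identifiers and 5 HTSeq summary lines, and 8 tables of comparisons, 4 per tissue. Tools named in the submitters' processing notes are DESeq2 1.22.2, HTSeq 0.11.2 and HISAT2 2.1.0. The genome build, annotation release and strand setting are not given in the sources used here. The authors' deposited tables give a mean normalized count (a signal), a log2 fold change with standard error, and raw and adjusted p-values. They entered no fit, and their test statistic was not used.

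The members and lists were chosen with earlier results of these data known. Named are the 8, the 2 others of the stretch with the highest mean CPM, the 2 most alike to the sum and the 3 most alike elsewhere. ENSFCAG00000032044 and ENSFCAG00000046508, and the neighbours named for their calls, were named after their values were seen. Counts without summary lines were fitted with edgeR 4.0.16 under R 4.3.3 (filterByExpr, TMM, quasi-likelihood, two-sided) to the 18 libraries of a tissue or to all 36, with Benjamini-Hochberg correction over the genes tested. Library measures were tested by permutation with SciPy 1.17.1. Scripts were tested on simulated data. Alternatives were DESeq2 1.42.0, RLE scaling, no filter, only the groups compared, a replicate block, other denominators and leaving out each library.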

Additional observations from a re-analysis of the deposited data

Results flagged for a closer look

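Within groups of 5 libraries, Dixon's test of the most extreme value at the 95% level picked out 3 of 72 cases. The usual chance rate of about 1 in 20 does not apply to this count. The cases include the 8 identifiers and their sum, which were picked for their levels and move together. In SKM banded at 1 month, library 1 had 19.6% no-feature lines, beside 10.8% to 13.1% in the other 4. That library is at the lower level of the 8 identifiers, and so is library 4 of its group, with 10.8%.

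In LV banded at 4 months, library 3 held 0.773% of its gene counts in the 32 other identifiers of the numbered stretch, beside 0.181% to 0.349% in the other 4. It also had the highest not-unique share of any LV library, 36.7%. The part of either in the other was not tested.

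In LV banded at 4 months, ENSFCAG00000032077 stood at 13.4 CPM in library 1, beside 8168 to 10916 CPM in the other 4. It is the library of that group at the lower level, so the gap itself is what was picked out, and in the other LV groups of 5 each level held more than 1 library.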

How the results depend on the processing

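The libraries above the gap were the same under TMM and RLE scaling, 2 other denominators and every leave-out, with a ratio across the gap of 19.5 to 23.8 in LV and 11.0 to 16.2 in SKM. Calls on the 9 other identifiers of the stretch moved more, and the cause was not tested. For banded minus sham in LV at 1 month the count was 0 by edgeR, 1 by DESeq2 and 0 to 2 over the leave-outs (2 without sham library 2 at 1 month). For 4 minus 1 month in LV sham it was 2 by edgeR, 1 by DESeq2, 0 with no filter, 0 with the replicate block, 0 with only the groups compared, and 0 to 2 over the leave-outs (1 without sham library 3 or 4 at 4 months, banded library 2 or 5 at 1 month, or banded library 1 or 2 at 4 months). For the same time in SKM banded it was 1, then 0 by DESeq2, 0 with the replicate block, 0 with only the groups compared, and 0 to 2 over the leave-outs (0 without banded library 1 at 1 month, 2 without banded library 5 at 1 month or banded library 2 at 4 months). In LV banded over time it was 4, then 3 by DESeq2, 3 with no filter, 3 with only the groups compared, 4 with the replicate block, and 2 to 4 over the leave-outs (2 without banded library 4 at 1 month or library 3 at 4 months). For LV minus SKM it was 6, and 5 to 7. The remaining 4 comparisons stayed at 0 over every leave-out. As no-feature lines per 100 gene counts in place of per all lines, 1 comparison passed in place of 0, and the leave-outs gave 0 to 1 (1 without SKM banded library 1 at 1 month). Not-unique lines and the summed share of the 32 others kept 1 call each, with 11.4 to 12.9 and 0.132 to 0.173 percentage points between LV and SKM over the leave-outs. Library numbers were not taken as pairs. Residuals of LV and SKM libraries of the same group and number correlated above 0.1 in 8 of 18 cases (-0.083 to 0.307), with 4 matching their own number best, and within a tissue in 11 of 32. The block changed no call on the 8, but turned their median log2 fold change for LV sham over time from 0.79 to -0.50 and took that for LV banded minus sham at 1 month from 0.93 to 0.42, and that for SKM sham over time from 0.42 to 0.079. With 5 or fewer libraries a group, split between 2 levels, moderate differences in the 8 cannot be seen.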

Other observations

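The opposite order, with the 10 libraries of the upper level all below the 8 of the lower level in LV and in SKM, was found for 1 of the 11097 genes with at least 1 CPM in each tissue, or 0.00901%, and for the same number, 0.0054%, of the 18505 with any read. It was ENSFCAG00000046508, which is not in the numbered stretch, has no symbol here, and was named after its values were seen. In LV sham it stood at 1022, 2202 and 177 CPM in libraries 1 to 3 at 1 month and at 1609.9, 2285, 2083, 935 and 919 CPM in libraries 1 to 5 at 4 months. In banded LV it stood at 2039, 399, 391, 1606 and 484 CPM at 1 month and at 2157, 872, 864, 413 and 638 CPM at 4 months. The LV libraries at the upper level of the 8 thus lay between 177 and 935 CPM and those at the lower level between 1022 and 2285 CPM, which nearly touch. In SKM the ranges were 86.2 to 261 CPM and 531 to 815 CPM and stood further apart. Its libraries were chosen by the level of the 8, so this is a description with no test.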
